A study of Mus musculus with 2 samples.

Results

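Nuclear receptors are transcription factors that small lipid-soluble ligands can switch on or off, and corepressors are the proteins that many of them recruit when no activating ligand is bound. This account covers 39 named mouse genes, 38 nuclear receptor genes and the corepressor gene Ncor1, out of 43346 mouse gene identifiers in the deposited tables. The genes form a list of names, with no measured value in the rule, and each was matched by its gene identifier. The plural "corepressors" in the name of the group rested on Ncor1 alone. Total RNA was sequenced from livers of B6NCrl mouse embryos at embryonic day 12.5, with no treatment or engineered allele in the labels. The 2 libraries form 1 group: pool 1 (replicate 1) took 120 embryos and pool 2 (replicate 2) took 88 others, each with both sexes mixed. With 1 group of 2 libraries no condition was compared and no test was run, so values are described with the spread between the pools.

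A nuclear receptor binds DNA through a pair of zinc fingers and its ligand, where it has one, through a pocket in its carboxy-terminal part. Many work as pairs with a retinoid X receptor. Without an activating ligand, receptors such as the thyroid hormone and retinoic acid receptors hold a corepressor complex built on a scaffold such as NCOR1, which carries the histone deacetylase HDAC3. Ligand binding exchanges this complex for coactivators. In the adult liver the family controls bile acid, lipid, sugar and drug metabolism, and at this stage the organ is also the main site of blood formation.

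The part of the first zinc finger that reads the DNA, called the P-box, runs 6 codons from the third cysteine and holds the fourth, and it was located in the coding sequence of all 38 receptors. The following stretches show the 18 P-box bases in capitals inside 60 coding bases, 1 for each of 6 receptors, to show where abundant and scarce receptors share or differ in this code. They are reference sequence from GENCODE M21 on GRCm38. They lie at chr17:34034024-34034083 on the plus strand (Rxrb), chr7:44552079-44552138 on the minus strand (Nr1h2) and chr8:71381014-71381073 on the minus strand (Nr2f6). Those of Esrra and Nr3c2 lie at chr19:6920064-6920123 on the minus strand and chr8:77085606-77085665 on the plus strand, and that of Nr5a2 crosses an exon junction on chromosome 1.
Rxrb: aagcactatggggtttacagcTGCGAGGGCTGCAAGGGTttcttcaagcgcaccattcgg
Nr1h2: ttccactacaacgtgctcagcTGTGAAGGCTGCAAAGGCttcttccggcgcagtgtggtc
Nr2f6: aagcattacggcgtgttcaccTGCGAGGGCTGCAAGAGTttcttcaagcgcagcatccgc
Esrra: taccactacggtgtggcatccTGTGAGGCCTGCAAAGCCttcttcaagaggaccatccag
Nr3c2: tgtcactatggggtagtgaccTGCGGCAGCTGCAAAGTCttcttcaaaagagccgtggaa
Nr5a2: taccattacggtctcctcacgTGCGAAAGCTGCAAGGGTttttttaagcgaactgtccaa

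The residues at the variable positions of the P-box, the 3 positions 2, 3 and 6 of the box, sorted the 38 receptors into 7 groups. Glutamate, glycine and glycine stood there in 24 receptors, among them Rxrb and Nr1h2. All 24 together summed to 135 TPM in pool 1 and 134 TPM in pool 2. The 3 COUP-TF relatives Nr2f1, Nr2f2 and Nr2f6 ended the box in serine and summed to 48.9 TPM in pool 1 and 48.6 TPM in pool 2. Glycine, serine and valine marked the 3 receptors for glucocorticoids, mineralocorticoids and progesterone (Nr3c1, Nr3c2 and Pgr), at 20.5 TPM in pool 1 and 20.2 TPM in pool 2. The remaining 4 groups were the estrogen-related receptors, the estrogen receptors, the NR5 pair and Hnf4g. Of these, the estrogen-related group reached 5.37 TPM in pool 1 and 5.50 TPM in pool 2, and the estrogen receptors 0.11 and 0.20 TPM in pools 1 and 2.

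The libraries held 37.6 M expected counts in pool 1 and 34.7 M in pool 2, where an expected count is the estimated number of reads of a gene. TPM scales these counts by transcript length and library total, so that genes can be set beside each other. At an effective length of 1000 bases, 3 counts corresponded to 0.0953 TPM in pool 1 and 0.103 TPM in pool 2. Markers of the labelled tissue were present: the 5 hepatoblast markers summed to 6884 TPM in pool 1 and 6712 TPM in pool 2, and the 5 erythroid markers to 93408 and 94984 TPM in pools 1 and 2. Markers of macrophages, endothelium and mesenchyme were detected in full, mesothelial markers in 3 of 4, and those of gut and skeletal muscle in 1 of 4 each. None of the 4 neural or the 4 adrenal and gonad markers reached 1 TPM in both libraries. In such bulk tissue, fewer cells of a type and less RNA per cell cannot be told apart.

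Of the 39 genes, 22 had at least 1 TPM in both libraries, or 56.4%. The same held for 29.6% of all mouse gene identifiers and 54.5% of protein-coding genes. A further 3 genes (Rxrg, Pparg and Nr3c2) reached 1 TPM in 1 library, 14 stayed below it in both, and each of the 39 had reads. Mean TPM had a median of 1.40 over the 39 genes and 2.02 over protein-coding genes. Among detected genes the median was 5.05 TPM for the 22 members, against 14.2 TPM for protein-coding genes. A mean of at least 10 TPM was reached by 8 members, Ncor1, Nr1h2, Nr2f6, Rxrb, Nr3c1, Nr2f2, Nr1h3 and Thra. The receptors together summed to 214 TPM in pool 1 and 212 TPM in pool 2. Nr1h2, Nr2f6 and Rxrb alone held 48.9% of that sum in pool 1 and 47.6% in pool 2.

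**Figure D1:**
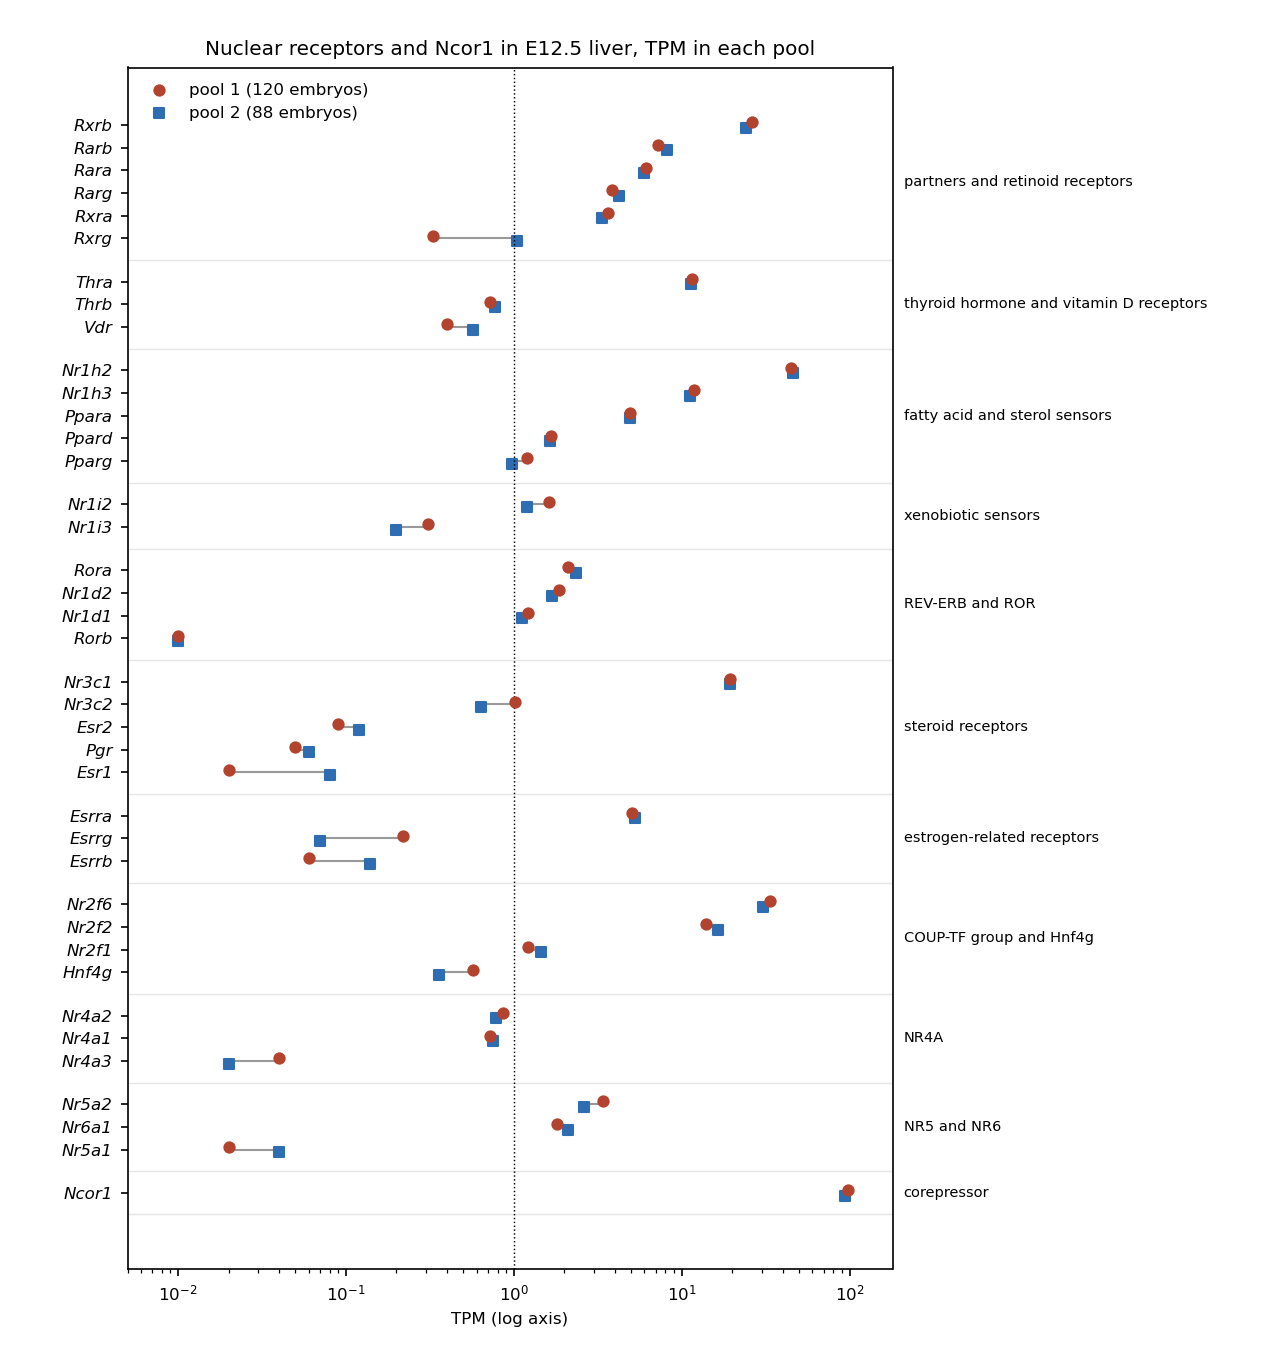
TPM of each of the 39 genes in pool 1 (circles) and pool 2 (squares) on a log axis, grouped by role; the dotted line marks 1 TPM. Ncor1 is the highest point in both libraries, and the receptors range from Nr1h2, at 44.7 TPM in pool 1 and 46.1 TPM in pool 2, down to Rorb at 0.01 TPM.

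The retinoid X receptors, the shared partners of the family, were represented mainly by Rxrb (RXRβ). Rxrb (ENSMUSG00000039656.12, chromosome 17, 34031812 to 34038399) had 26.1 TPM in pool 1 and 24.1 TPM in pool 2, or 25.1 ± 1.40 (SD, n = 2). Rxra, the form known as the main partner in adult liver, had 3.66 TPM in pool 1 and 3.34 TPM in pool 2. Rxrb thus exceeded Rxra 7.14 times in pool 1 and 7.23 times in pool 2, and 3.17 times in expected counts not scaled by length in both libraries. It held 85.7% ± 1.49 of the TPM of the 3 RXR genes (SD, n = 2).

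Rxrg, the third RXR gene and one known from muscle and the nervous system, had 0.33 TPM in pool 1 and 1.04 TPM in pool 2. These values rested on 19 and 52 reads in pools 1 and 2. Pool 1 was lower, with a read ratio of 0.338 at equal depth (exact 95% counting interval 0.189 to 0.581). The skeletal muscle markers were also lower in pool 1: Myog, Myod1, Myf5 and Acta1 summed to 3.06 TPM in pool 1 and 10.2 TPM in pool 2. The neural markers summed to 2.10 TPM in pool 1 and 1.57 TPM in pool 2, but ran both ways. Tubb3 and Elavl4 were higher in pool 1, Elavl3 was equal, and Stmn2 had 0.76 TPM in pool 1 and 0.91 TPM in pool 2. The part of either list in the Rxrg difference was not tested.

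All 3 retinoic acid receptors were detected. Rarb had 7.27 TPM in pool 1 and 8.13 TPM in pool 2. Rara had 6.13 TPM in pool 1 and 5.93 TPM in pool 2, and Rarg had 3.86 and 4.21 TPM in pools 1 and 2. Rarb led in both libraries, by 1.19 times over Rara in pool 1 and 1.37 times in pool 2. Rarb held 43.3% ± 1.68 of the family's TPM (SD, n = 2). In GENCODE M21 its exons overlap those of Top2b on the opposite strand over 1793 bases, and Top2b had 7234 reads in pool 1 and 7127 in pool 2. Rarb had 672 reads in pool 1 and 695 in pool 2. The counts of Rarb were whole, but they were made on GENCODE M4, and whether its models overlap in the same way was not tested. The labels give no strandedness, so the strand of reads in the overlap is not known. For some other pairs on opposite strands, such as Thra and Nr1d1, the quantification did divide reads between the genes.

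Rarb is itself a textbook retinoic acid target, through a direct repeat of a retinoid half-site just before its start. Its RefSeq promoter (GRCm38.p6, minus strand) is shown for that reason, over the 100 bases before the annotated start at chr14:16575477-16575576, with the repeat in capitals.
Rarb promoter: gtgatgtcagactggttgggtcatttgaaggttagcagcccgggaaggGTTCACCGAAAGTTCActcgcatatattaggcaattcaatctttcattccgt

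The repeat searched was GTTCA, then 6 bases of any kind, then GTTCA again, on either strand. These are the letters of the Rarb repeat shown above, so a match in Rarb was given by the choice of letters. Other spellings of the half-site were not searched, so the counts cover this spelling alone. This repeat was found in 0.0761% of 32851 RefSeq promoter windows of 300 bases. Promoter windows were listed for 35 of the 39 genes, and among these Rarb alone had a match, between 52 and 37 bases before its start. A match describes these letters and does not show a bound site.

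The genes that supply and clear retinoic acid were measured as a list of 13, of which 8 were detected. For this and the later lists, 54.5% of all protein-coding genes were detected by the same threshold. Rbp4, the plasma carrier of retinol made by hepatocytes, had 1228 TPM in pool 1 and 1222 TPM in pool 2. Dhrs3, which reduces retinaldehyde back to retinol, had 29.2 and 30.1 TPM in pools 1 and 2. Aldh1a2, an enzyme that makes retinoic acid, had 5.84 TPM in pool 1 and 5.41 TPM in pool 2. The clearing enzymes of the CYP26 family were low, with Cyp26a1 at 0.04 TPM in pool 1 and 0.12 TPM in pool 2, and Cyp26c1 without reads. Crabp1, a cellular retinoic acid-binding protein, had 6.51 TPM in pool 1 and 9.37 TPM in pool 2.

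Of the thyroid hormone receptors, Thra (ENSMUSG00000058756.9, chromosome 11, 98740638 to 98769006) had 11.5 TPM in pool 1 and 11.3 TPM in pool 2. Thrb, the form known to dominate in adult liver, had 0.72 TPM in pool 1 and 0.77 TPM in pool 2. Thra exceeded Thrb 16.0 times in pool 1 and 14.7 times in pool 2, against 6.0 and 5.98 times in pools 1 and 2 in reads not scaled by length. In TPM it held 93.9% ± 0.358 of the pair (SD, n = 2). The vitamin D receptor gene Vdr had 0.40 TPM in pool 1 and 0.57 TPM in pool 2.

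Thra makes a receptor that binds thyroid hormone (TRα1) and a splice form with another end that does not (TRα2). The model of the binding form, Thra-202 with 410 codons, held 53.4% of the gene's TPM in pool 1 and 56.4% in pool 2. The non-binding model, Thra-201 with 492 codons, held 39.1% in pool 1 and 39.7% in pool 2. Both models share 1110 coding bases, after which 120 belong to Thra-202 alone and 366 to Thra-201 alone. The point where they part is given here from GENCODE M21 on GRCm38, plus strand, with 20 shared bases in lower case and the first 40 own bases in capitals. The Thra-202 stretch is continuous at chr11:98764386-98764445, and that of Thra-201 crosses a splice junction.
Thra-202: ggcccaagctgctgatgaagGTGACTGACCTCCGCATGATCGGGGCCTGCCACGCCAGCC
Thra-201: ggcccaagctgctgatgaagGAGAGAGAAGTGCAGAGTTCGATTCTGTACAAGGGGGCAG

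The end of Thra lies over the end of Nr1d1, the REV-ERBα gene, on the opposite strand. The genes overlap over 1075 bases (chromosome 11, 98767932 to 98769006), of which 263 are exonic in both. Their expected counts were fractional on their own, at 780.43 and 100.57 in pool 1 and 717.70 and 85.30 in pool 2, and whole when added, at 881 in pool 1 and 803 in pool 2. The authors' quantification had therefore divided shared reads between them, and their levels and the share of Thra-201 carry that uncertainty.

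The thyroid hormone and glucocorticoid conversion list had 3 of 7 genes detected. Slc16a10, an aromatic amino acid and thyroid hormone transporter, had 50.7 TPM in pool 1 and 52.7 TPM in pool 2. The deiodinases that activate or inactivate the hormone were all under 1 TPM: Dio1 had 0.06 and 0.07 TPM in pools 1 and 2, Dio2 had 0.08 and 0.02 TPM in pools 1 and 2 and Dio3 had 0.35 and 0.11 TPM in pools 1 and 2. Hsd11b2, which inactivates glucocorticoids, had 5.80 TPM in pool 1 and 5.19 TPM in pool 2, and its counterpart Hsd11b1 had 0.78 and 0.99 TPM in pools 1 and 2.

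The receptors for oxysterols contained the most abundant receptor gene of the 38. Nr1h2 (LXRβ, ENSMUSG00000060601.8, chromosome 7, 44549616 to 44553951) had 44.7 TPM in pool 1 and 46.1 TPM in pool 2, or 45.4 ± 0.926 (SD, n = 2). Nr1h3 (LXRα), the form enriched in adult liver, had 11.8 TPM in pool 1 and 11.2 TPM in pool 2. Nr1h2 exceeded Nr1h3 3.80 times in pool 1 and 4.12 times in pool 2. Of the 7 LXR target genes, 5 were detected. Lpcat3, a phospholipid-remodelling enzyme, had 58.4 TPM in pool 1 and 64.6 TPM in pool 2, and Srebf1, a regulator of fatty acid synthesis, had 39.9 and 44.4 TPM in pools 1 and 2. The sterol exporters Abcg5 and Abcg8 were under 1 TPM in both libraries.

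Among the fatty acid sensors, Ppara, which drives fatty acid oxidation in liver, had 4.91 TPM in pool 1 and 4.90 TPM in pool 2. Ppard had 1.66 and 1.64 TPM in pools 1 and 2, and Pparg, the adipocyte regulator, had 1.19 and 0.98 TPM in pools 1 and 2. Ppara held 64.2% ± 1.33 of the family's TPM (SD, n = 2), but 50.3% when reads were divided by the longest transcript model. Of the 10 PPAR target genes, 7 were detected. The lipid droplet gene Plin2 had 117 TPM in pool 1 and 112 TPM in pool 2, and the fatty acid-binding protein gene Fabp1 had 102 and 94.4 TPM in pools 1 and 2. Cyp4a10, Cyp4a14 and Fgf21 had no reads in either library.

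The xenobiotic sensors were low. Nr1i2 (PXR) had 1.61 TPM in pool 1 and 1.19 TPM in pool 2, from 124 and 85 reads in pools 1 and 2. Nr1i3 (CAR) had 0.31 TPM in pool 1 and 0.20 TPM in pool 2. Its expected counts, 22.03 in pool 1 and 14.48 in pool 2, were fractional. They added to whole numbers, 1142 in pool 1 and 975 in pool 2, with those of Tomm40l, which overlaps it on the opposite strand. The level of Nr1i3 thus rests on how a small part of these reads was assigned. Of the 5 drug-metabolism targets, 1 was detected: the conjugate exporter Abcc2, at 7.68 TPM in pool 1 and 7.10 TPM in pool 2. Cyp3a11, the classical PXR target, had 0.03 TPM in both libraries, and Cyp2c29 had no reads.

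The clock-linked repressors Nr1d1 and Nr1d2 (REV-ERBα and β) and the activator Rora, which compete for the same DNA element, were near the detection threshold. Nr1d2 had 1.87 TPM in pool 1 and 1.69 TPM in pool 2, and Nr1d1 had 1.22 and 1.12 TPM in pools 1 and 2. Rora had 2.11 TPM in pool 1 and 2.33 TPM in pool 2, and Rorb had 4 reads in each. With reads divided by the longest model, Rora had 0.56 TPM in pool 1 and 0.64 TPM in pool 2, below the threshold. Of the 9 clock targets and partners, 7 were detected. The clock repressors Cry2 and Cry1 led with 12.3 and 10.6 TPM in pool 1 and 12.6 and 11.0 TPM in pool 2, and the activator Arntl had 4.20 and 4.40 TPM in pools 1 and 2. The time of day of collection was not given in the sources used here.

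Among the steroid receptors, Nr3c1, the glucocorticoid receptor known to sustain erythroid progenitor growth, stood apart. Nr3c1 (ENSMUSG00000024431.10) had 19.4 TPM in pool 1 and 19.5 TPM in pool 2, from 1864 and 1761 reads in pools 1 and 2. The mineralocorticoid receptor gene Nr3c2 had 1.01 TPM in pool 1 and 0.64 TPM in pool 2. The receptors for progesterone and estrogen had few reads at this depth: Pgr had 6 and 7 reads in pools 1 and 2, Esr1 had 3 and 6 reads in pools 1 and 2, and Esr2 had 9 and 11 reads in pools 1 and 2. The level of Nr3c1 depended on which transcript models were counted. Nr3c1-208, a model of 1891 bases with an incomplete end, held 53.6% of its TPM in pool 1 and 54.5% in pool 2, and the full-length Nr3c1-203 held 23.2% in pool 1 and 17.9% in pool 2. Counting complete coding models only, Nr3c1 had 6.52 TPM in pool 1 and 6.95 TPM in pool 2, below Thra at 10.7 TPM in pool 1 and 10.9 TPM in pool 2 on the same scale.

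Of the 8 glucocorticoid receptor targets, 5 were detected, beside 54.5% of all protein-coding genes. Fkbp5, a chaperone partner of the receptor, had 14.7 TPM in pool 1 and 14.2 TPM in pool 2, and Tsc22d3 (GILZ) had 13.9 and 14.8 TPM in pools 1 and 2. Sgk1 had 10.6 TPM in pool 1 and 10.0 TPM in pool 2. The gluconeogenic targets known from liver after birth were low, with Tat at 0.08 and 0.11 TPM in pools 1 and 2 and Pck1 at 0.06 and 0.17 TPM in pools 1 and 2.

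The estrogen-related receptors, orphans that control mitochondrial genes, were represented by Esrra. Esrra had 5.09 TPM in pool 1 and 5.29 TPM in pool 2 and held 95.5% ± 0.987 of the family's TPM (SD, n = 2). Esrrg had 13 reads in pool 1 and 9 in pool 2, and Esrrb had 8 in pool 1 and 17 in pool 2.

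The COUP-TF relatives, orphans that can repress, were led by Nr2f6 (EAR2). Nr2f6 (ENSMUSG00000002393.10, chromosome 8, 71374123 to 71381960) had 33.6 TPM in pool 1 and 30.6 TPM in pool 2, or 32.1 ± 2.15 (SD, n = 2). Its read ratio at equal depth was 1.12 (counting interval 1.05 to 1.19). Reads of Nr2f6 were divided with Ocel1 on the opposite strand: 2197.06 and 463.94 counts in pool 1 added to 2661, and 1815.68 and 424.32 in pool 2 to 2240.

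Nr2f2 (COUP-TFII), known from venous endothelium and mesenchyme, had 14.0 TPM in pool 1 and 16.6 TPM in pool 2. Its read ratio was 0.857 (counting interval 0.800 to 0.917), so the pools differed beyond counting error in the opposite direction to Nr2f6. Stellate and mesenchymal markers summed to 355 TPM in pool 1 and 366 TPM in pool 2, and endothelial markers to 93.6 and 84.9 TPM in pools 1 and 2. Within both lists the genes ran both ways. The read ratio was 0.888 for Col1a1 and 1.11 for Lum in the first, and 0.858 for Pecam1 and 1.15 for Oit3 in the second. The part of either list in the Nr2f2 difference was not tested. Nr2f6 exceeded Nr2f2 2.40 times in pool 1 and 1.85 times in pool 2 in TPM, but 1.35 and 1.03 times in pools 1 and 2 in reads not scaled by length. Nr2f1 had 1.21 TPM in pool 1 and 1.46 TPM in pool 2, but 101 reads in pool 1 and 80 in pool 2, so TPM and reads ran in opposite directions. By the longest model it had 1.03 TPM in pool 1 and 0.88 TPM in pool 2, below the threshold in pool 2. Hnf4g had 0.57 TPM in pool 1 and 0.36 TPM in pool 2, while its paralog Hnf4a, a defining regulator of hepatocytes outside the 39 genes, had 13.4 and 13.1 TPM in pools 1 and 2.

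The NR4A genes, immediate early orphans that need no ligand, were below 1 TPM in both libraries. Nr4a2 had 0.86 TPM in pool 1 and 0.78 TPM in pool 2, Nr4a1 had 0.72 and 0.75 TPM in pools 1 and 2, and Nr4a3 had 1 and 3 reads in pools 1 and 2. Nr5a2 (LRH-1), which controls bile acid and cholesterol genes in adult liver, had 3.40 TPM in pool 1 and 2.62 TPM in pool 2, or 1.91 and 1.95 TPM in pools 1 and 2 by the longest model. Nr6a1, the germ cell nuclear factor, had 1.81 TPM in pool 1 and 2.09 TPM in pool 2, but 0.91 and 1.07 TPM in pools 1 and 2 over complete coding models, where it was no longer detected in both. Nr5a1 (SF-1), the regulator of adrenal and gonad, had 2 and 3 reads in pools 1 and 2, in tissue whose 4 adrenal and gonad markers summed to 0.68 TPM in pool 1 and 0.57 TPM in pool 2.

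**Figure D2:**
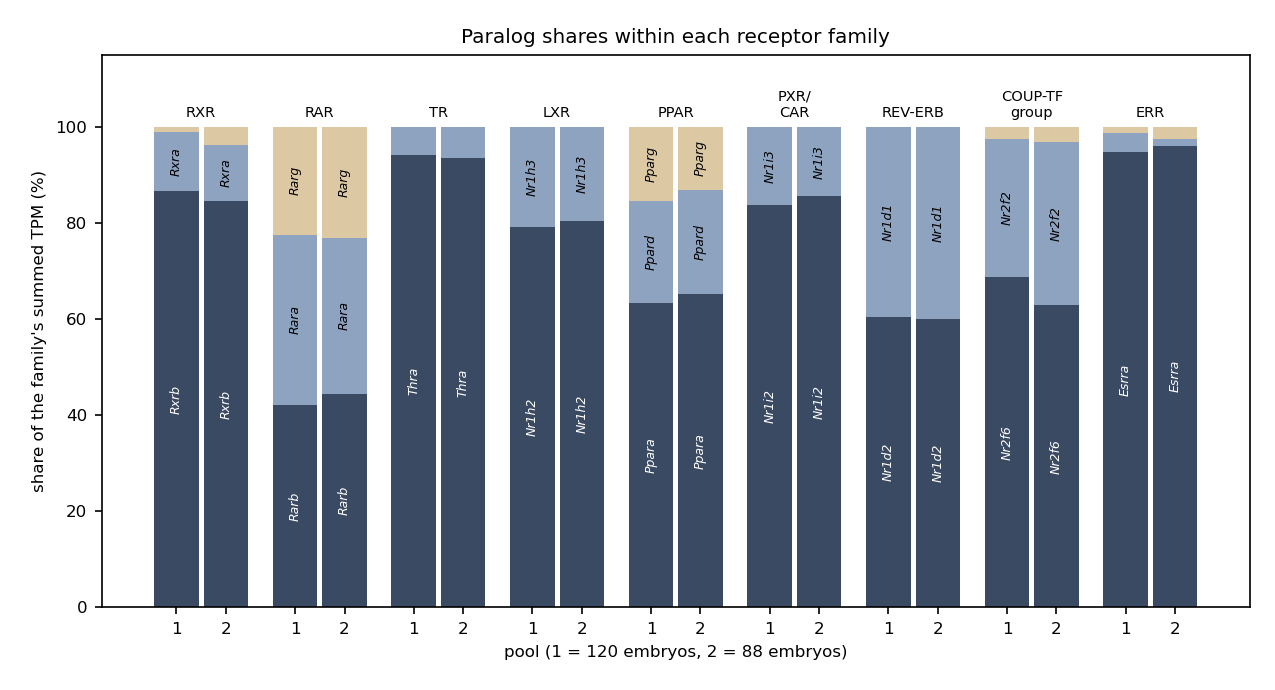
Share of each receptor family's summed TPM held by its members, in percent, with pool 1 left of pool 2 in each pair of stacked bars. The leading gene is the same in both libraries in the 9 families shown, and its share ranges from 43.3% for Rarb to 95.5% for Esrra as a mean.

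Ncor1, the scaffold that carries HDAC3 to unliganded receptors, exceeded every receptor gene in deposited TPM. Ncor1 (ENSMUSG00000018501.13, chromosome 11, 62316426 to 62458541) had 97.3 TPM in pool 1 and 94.2 TPM in pool 2, or 95.8 ± 2.14 (SD, n = 2), from 6834 and 6429 reads in pools 1 and 2.

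The level of Ncor1 rested on a short model. Ncor1-212, of 1695 bases and with an incomplete end, held 56.2% of its TPM in pool 1 and 57.2% in pool 2. The second model, Ncor1-203 of 3171 bases and 291 codons, held 10.3% in pool 1 and 10.8% in pool 2. The longest coding model, Ncor1-201 of 9037 bases and 2454 codons, held 7.68% of the TPM in pool 1 and 7.97% in pool 2, but 30.8% of the reads in pool 1 and 30.4% in pool 2. Over complete coding models alone, Ncor1 had 18.5 TPM in pool 1 and 18.4 TPM in pool 2, below Nr1h2 at 39.5 and 38.5 TPM in pools 1 and 2. A complete model here is one without an incomplete end, whatever its length. The short Ncor1-203 counts among them, at 9.99 TPM in pool 1 and 10.2 TPM in pool 2. The longest, Ncor1-201, had 7.47 TPM in pool 1 and 7.51 TPM in pool 2. With all reads divided by the longest model, Ncor1 had 24.3 TPM in pool 1 and 24.7 TPM in pool 2, and Nr1h2 had 40.5 TPM in pool 1 and 40.8 TPM in pool 2. The lead of Ncor1 over the receptors thus held in the deposited TPM but not over complete coding models or by the longest model. Over protein-coding models, where the incomplete Ncor1-212 still counts, Ncor1 led with 90.2 and 87.1 TPM in pools 1 and 2. Nr1h2 had 40.6 and 40.4 TPM there in pools 1 and 2. In reads not scaled by length Ncor1 led too, while Nr1h2 had 2424 reads in pool 1 and 2256 in pool 2.

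Of 9 other genes of the corepressor complex and of other corepressors, 8 were detected, and the exception was the corepressor Hr at 0.07 TPM in pool 1 and 0.22 TPM in pool 2. Gps2, a subunit of the NCOR complex, had 109 TPM in both libraries, and Hdac3, its deacetylase, had 50.2 TPM in pool 1 and 46.4 TPM in pool 2. Tbl1x, another subunit, had 23.6 TPM in pool 1 and 24.2 TPM in pool 2, and the ligand-dependent corepressor Nrip1 had 25.7 and 25.5 TPM in pools 1 and 2. Of 11 coactivator genes, 11 were detected, among them the Mediator subunit Med1 at 36.4 TPM in pool 1 and 35.1 TPM in pool 2 and the methyltransferase Carm1 at 33.5 and 35.2 TPM in pools 1 and 2. Ncoa1, Ncoa2 and Ncoa3, which bind liganded receptors directly, had 1.13, 9.67 and 7.09 TPM in pool 1 and 1.18, 10.6 and 7.22 TPM in pool 2. Of 11 further nuclear receptor genes, 5 were detected, and Nr2e1 was among those without reads.

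**Figure D3:**
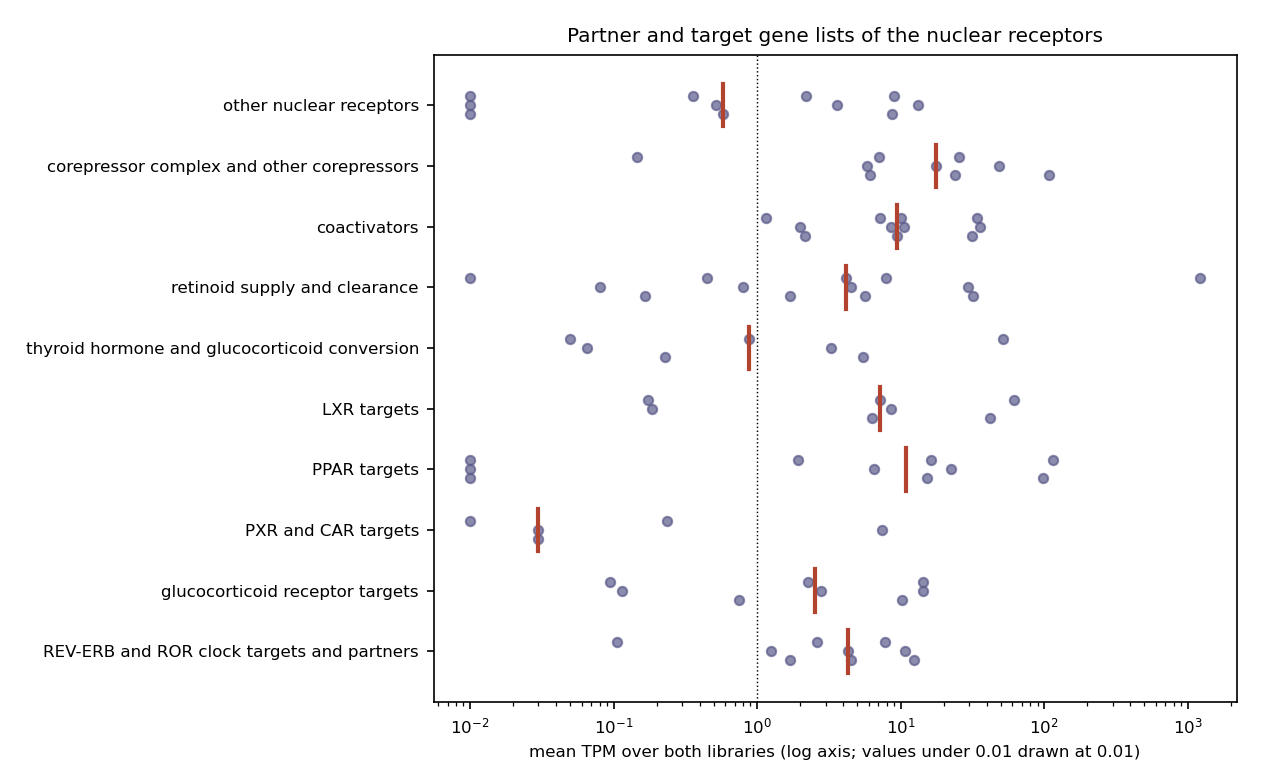
Mean TPM over both libraries of the genes in each list of partners, ligand-handling genes and targets, on a log axis; each point is 1 gene, the red bar is the list's median and the dotted line is 1 TPM. Medians run from 0.03 TPM for the PXR and CAR targets to 17.7 TPM for the corepressor list.

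By the deposited estimates, several receptor genes divided their RNA between transcript models. Of the 22 detected genes, 20 had more than 1 model, and the leading model was the same in both libraries in 17 of them. Nr1h2-203 held 38.3% of Nr1h2 in pool 1 and 28.6% in pool 2, and Nr1h2-204 held 34.6% in pool 1 and 33.1% in pool 2, so the leader changed. Nr1h3-202 held 59.3% of Nr1h3 in pool 1 and 29.7% in pool 2, while Nr1h3-201 held 22.9% in pool 1 and 50.8% in pool 2; both encode 445 codons. Ppara-201 held 53.5% of Ppara in pool 1 and 22.0% in pool 2, where the non-coding model Ppara-205 of 315 bases led with 35.7%. Ppara had 240 reads in pool 2 over all its models. TPM is scaled by length, so few reads give a model this short a large share. The shares are estimates of how reads were divided and carry no counting interval here. These changes in estimated share occurred while the gene levels of Nr1h2, Nr1h3 and Ppara stayed within a log2 ratio of 0.32 between the pools.

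Steady splits were found as well. Rxrb-202, with 410 codons, held 49.6% of Rxrb in pool 1 and 47.0% in pool 2, and Rxrb-201, with 524 codons, held 38.6% in pool 1 and 39.5% in pool 2. Nr2f2-201 held 83.0% of Nr2f2 in pool 1 and 81.2% in pool 2, and the shorter Nr2f2-202 held the remaining 17.0% in pool 1 and 18.8% in pool 2. Rara-204 held 54.5% of Rara in pool 1 and 54.1% in pool 2, and Rara-202 held 45.5% in pool 1 and 43.3% in pool 2.

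The last pair starts from different first coding exons, so the proteins differ at their amino-terminal end. The models share 1208 coding bases, with 178 own bases in Rara-204 and 169 in Rara-202. The junction is given here from GENCODE M21 on GRCm38, chromosome 11, plus strand, with the last 40 own bases in capitals before 20 shared bases.
Rara-204: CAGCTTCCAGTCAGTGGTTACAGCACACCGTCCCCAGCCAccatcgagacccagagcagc
Rara-202: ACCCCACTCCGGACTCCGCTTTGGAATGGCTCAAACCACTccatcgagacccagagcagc

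**Figure D4:**
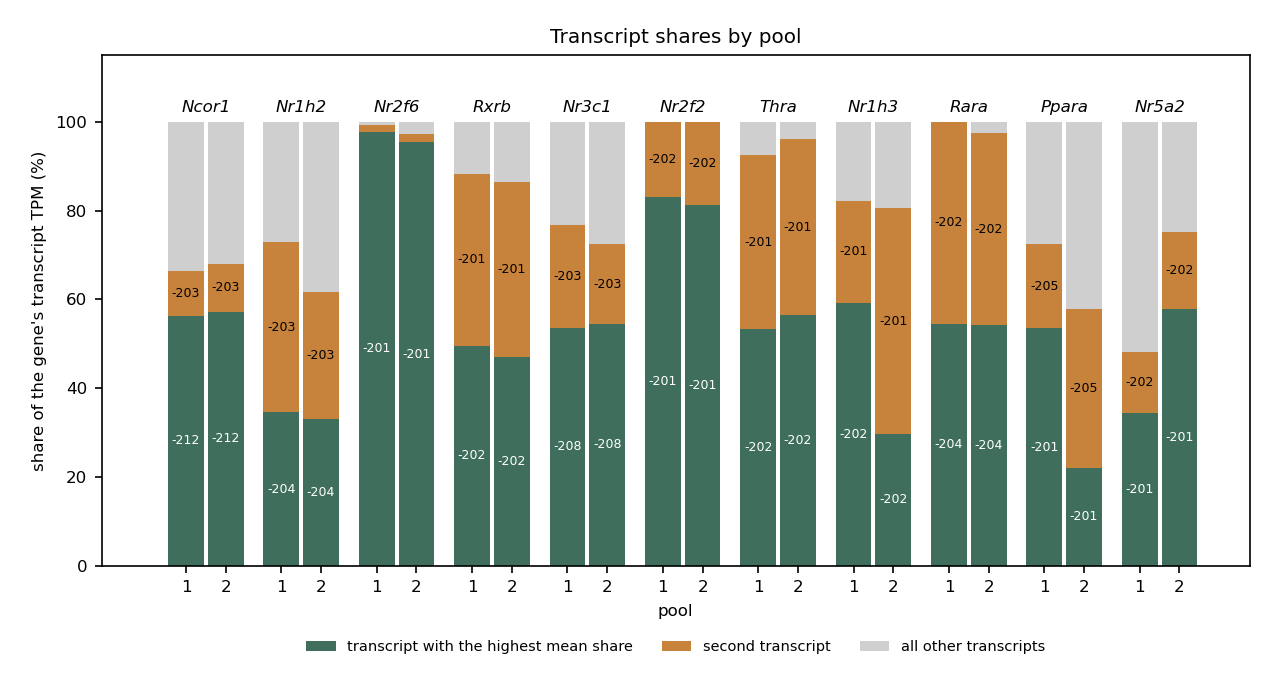
Share of each gene's transcript TPM, in percent, held by the model with the highest mean share, the second model and all others, with pool 1 left of pool 2. Thra, Rara, Rxrb and Nr2f2 keep nearly the same split in both libraries, whereas Nr1h3-202 takes 59.3% in pool 1 and 29.7% in pool 2.

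The pools were last compared gene by gene, as the TPM ratio of pool 1 over pool 2 with 0.1 TPM added to both. Genes that averaged 50 or more expected counts were compared, which left 27 of the 39. A log2 ratio of at least 0.32 in size was reached by 3 of them, Nr1i2, Nr3c2 and Nr5a2, or 11.1%. Over all 13017 genes compared in this way, 8.68% reached it. All 3 were higher in pool 1, where 3.76% of all genes were, and none of the 27 was lower in pool 1 against 4.92% of all genes. None of the 27 was past 2-fold, against 0.361% of all genes. The median log2 ratio was 0.03 over the 27 members and 0.01 over all genes, and the median size of the log2 ratio was 0.12 over the members and 0.08 over all genes. The 13017 genes were not matched to the members on expected count. Ratios spread more where reads are fewer, and the part of read number in these contrasts was not tested.

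The 3 differences did not have the same basis. For Nr1i2 the length was 2553 bases in both libraries, so TPM and reads gave the same ratio by construction. The read ratio at equal depth was 1.35 (counting interval 1.02 to 1.80). Nr1i2 was picked for its large ratio in these same counts, so the interval is no separate support. Hepatoblast markers summed to 6884 TPM in pool 1 and 6712 TPM in pool 2 but ran both ways, with Afp higher and Alb lower in pool 1. Gut and pancreas markers summed to 8.02 and 6.51 TPM in pools 1 and 2. The part of either list in the Nr1i2 difference was not tested. Nr3c2 was higher in pool 1 in TPM but had 58 reads there and 63 in pool 2, a ratio of 0.851 (counting interval 0.585 to 1.24). In Nr3c2 a partial model of 612 bases, Nr3c2-206, held 62.7% of the TPM in pool 1 and 35.9% in pool 2. Nr5a2 likewise had 278 and 263 reads in pools 1 and 2, a ratio of 0.977 (counting interval 0.823 to 1.16). Its long model Nr5a2-201 held 34.4% of the TPM in pool 1 and 57.9% in pool 2. Intervals and floors cover counting error only, since reads copied by PCR without molecular identifiers are not independent molecules, and each pool had 1 library.

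**Figure D5:**
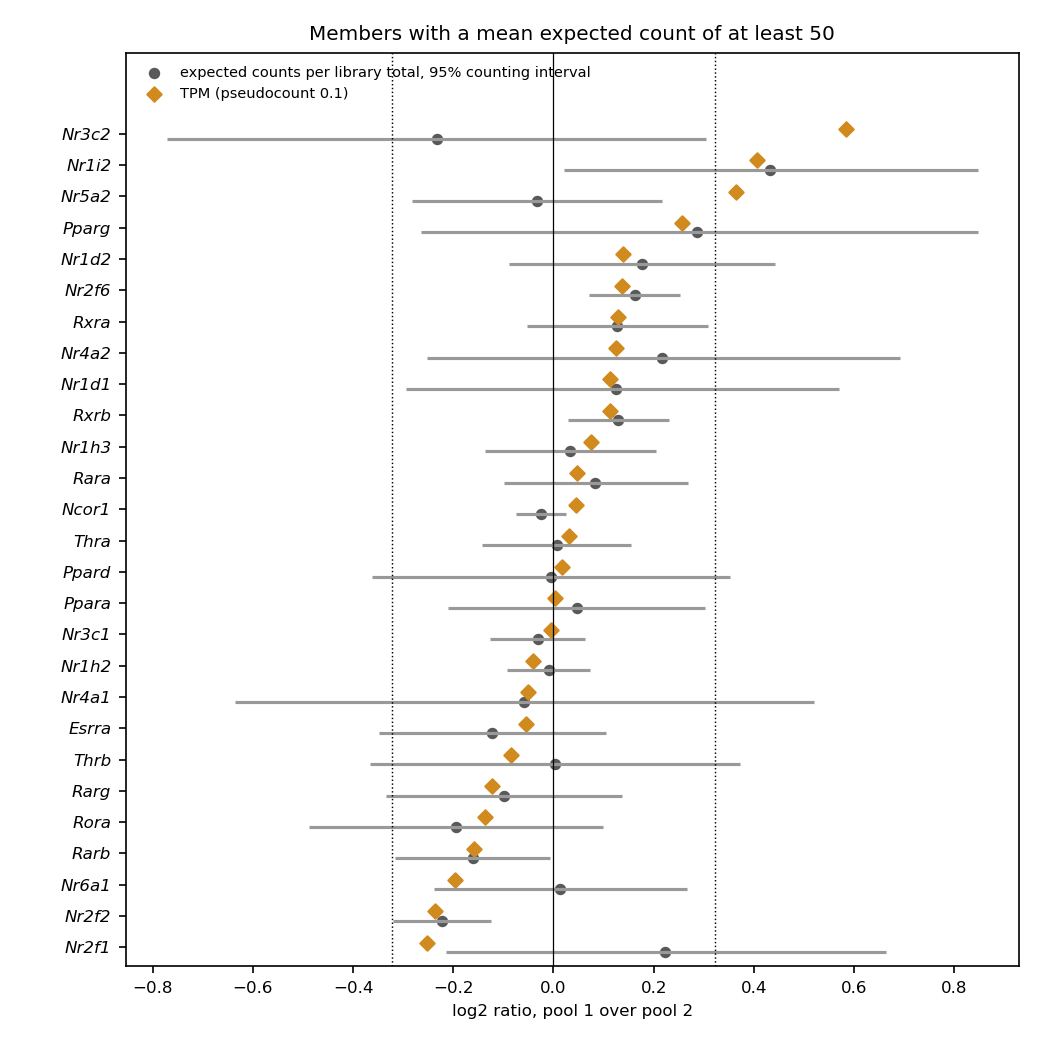
Log2 ratio of pool 1 over pool 2 for the 27 genes that averaged 50 or more expected counts, from TPM (diamonds) and from expected counts per library total (circles, with exact 95% counting intervals as bars); dotted lines mark a log2 ratio of 0.32 either way. Nr3c2 and Nr5a2 lie right of the line in TPM but not in counts. Nr1i2, whose length was the same in both libraries, lies right of it in both.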

How the data were processed

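The authors deposited gene and transcript tables for each library, quantified on mm10 with GENCODE M4 per the file headers; not given in the sources used here were the aligner and quantifier. The deposited expected counts are estimated reads, not normalized, and the deposited TPM values are scaled by length over all entries, spike-ins included. The deposited percent that each transcript takes of its gene was recomputed from transcript TPM and differed by at most 0.254 points. Per the labels, each library used 10 ng of total RNA extracted with a mirVana kit, with spike-ins. Coordinates and transcript types came from GENCODE M21 on the same assembly, where 233 of 234 member models were found, and promoters from RefSeq (GRCm38.p6).

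Detection was 1 TPM in both libraries. Pool ratios had a pseudocount of 0.1, which understates ratios of low genes, and a minimum mean count of 50. Read ratios had exact 95% Clopper-Pearson intervals from rounded expected counts, checked on simulated data. Alternatives used edgeR 4.0.16 TMM and DESeq2 1.42.0 size factors in R 4.3.3, other filters and transcript sets. Values were given for members with a mean of at least 5 TPM, family leaders and seconds, and the 5 largest pool differences; some further members are named with values seen. The rule for the members uses names alone, but members and lists were drawn up with earlier results of these data known. Some genes counted in the partner and target lists are not reported here by name.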

Additional observations from a re-analysis of the deposited data

How the results depend on the processing

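The count of 22 detected genes ranged from 16 at 2 TPM to 27 at 0.5 TPM over the alternatives tried, with 23 without replicate 1 and 24 without replicate 2, and the leading paralog was the same in the 9 families. Some alternatives were chosen after seeing the data: counting complete coding transcripts only, and dividing reads by the longest transcript model. Rxrb held 74.7% of RXR in expected counts, 84.0% over protein-coding models and also over complete ones, and 83.7% by longest model. Rarb held 46.4% in expected counts and 47.8% by longest model, and Thra held 85.7% in expected counts. Nr1h2 held 78.8% over protein-coding and 78.1% over complete models. Ppara held 57.0% in expected counts, 59.2% over protein-coding and over complete models, and 50.3% by longest model. Nr1i2 held 87.1% by longest model. Nr1d2 held 72.1% in expected counts, 59.3% over protein-coding and over complete models, and 59.7% by longest model. Nr2f6 held 52.8% in expected counts. Esrra held 93.2% in expected counts, 96.7% over protein-coding and over complete models, and 96.8% by longest model. Expected counts are not scaled by length, which is their construction; the cause of the other moves was not tested.

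Members past a log2 ratio of 0.32 between the pools numbered 3 of 27, where 8.68% of all genes passed. There was 1 (Nr1i2) with TMM-scaled counts (7.41% of all genes) and 1 with DESeq2 size factors (7.39%), and there were 0 with a pseudocount of 1 (4.16%). There were 9 of 34 at a mean count of at least 10 (16.8%) and 10 of 39 with no filter (17.1%). Past 2-fold there were 0, against 1 (Rxrg) at a mean count of at least 10 (1.72% of all genes) and 1 with no filter (4.14%). Centring on the spike-ins moved the median of all genes by 0.12 on the log2 scale and gave 4 members (11.2% of all genes). Of the 39 gene levels, 20 moved by more than the spread between libraries over complete coding models and 22 by longest model. Of the 20 leading transcript shares, 12 moved in expected counts and 11 over protein-coding models. No paired analysis was possible because both libraries belong to 1 group. Depth limits the 12 members under a mean count of 50, and pools of embryos hide variation between embryos.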
